A study of Homo sapiens with 48 samples.

Results

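SMAD1, SMAD2, SMAD3, SMAD4, SMAD6, SMAD7, SKIL, ID1, ID2 and ID3 are the 10 genes described here, chosen by symbol from a table of 61815 genes as signal carriers, inhibitors and targets of the TGF-β and BMP pathways. All 10 were found and all 10 were among the 20009 genes that passed the filter on low counts. RNA was sequenced in 48 libraries, 3 for each of 16 groups, from 22Rv1, a human cell line of castration-resistant prostate cancer (Rv1-WT), and 5 derivatives. Rv1-Luc is a derivative that carries firefly luciferase from a lentivirus. Rv1-WT and Rv1-Luc were cultured either in FBS (fetal bovine serum) or, after 1 passage of adaptation, in CSS (charcoal-stripped serum), from which androgens have been removed. The dKO lines lack CDK8 and CDK19, the paralogous Mediator kinases, after CRISPR knockout. They carry 1 kinase back on a lentivirus: dKO-8 active CDK8, dKO-8M kinase-dead CDK8, dKO-19 active CDK19 and dKO-19M kinase-dead CDK19, all grown in FBS. The CDK8 pair was made from knockout cells that already carried an empty vector, and each combination exists as 1 line, so that differences between lines cannot be told apart from differences in their derivation. Treatment was with SNX631, which inhibits CDK8 and CDK19, at 500 nM, or with vehicle (0.1% DMSO), for 72 hours in every group.

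TGF-β and activin ligands signal through SMAD2 and SMAD3, and BMP ligands through SMAD1, SMAD5 and SMAD9. These receptor-regulated SMADs are phosphorylated at the receptor, join the shared partner SMAD4 and act on genes in the nucleus, where CDK8 and CDK19 can phosphorylate their linker region. SMAD6 and SMAD7 are induced by the pathway and block the receptors, and SKIL (SnoN) is a corepressor that binds SMAD complexes. ID1, ID2 and ID3 are BMP-SMAD targets and encode helix-loop-helix proteins without a DNA-binding region, which hold E proteins away from their E-box sites.

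The bases just upstream of the transcription start are shown for the 3 ID genes, on which the drug results below turn, and for SMAD6, which holds the rarest of the motifs searched. The 250 upstream bases are from RefSeq on GRCh38.p14 and are written 5′ to 3′ on the gene's strand, and all 10 genes matched an entry. The window of ID1 lies on chromosome 20 (chr20:31605039-31605288, plus strand), that of ID2 on chromosome 2 (chr2:8681806-8682055, plus strand), that of ID3 on chromosome 1 (chr1:23559502-23559751, minus strand) and that of SMAD6 on chromosome 15 (chr15:66701986-66702235, plus strand). Capitals mark a match, on either strand, to the palindromic SMAD box GTCTAGAC, the BMP-type GC element GGCGCC or the SMAD core CAGAC.
ID1: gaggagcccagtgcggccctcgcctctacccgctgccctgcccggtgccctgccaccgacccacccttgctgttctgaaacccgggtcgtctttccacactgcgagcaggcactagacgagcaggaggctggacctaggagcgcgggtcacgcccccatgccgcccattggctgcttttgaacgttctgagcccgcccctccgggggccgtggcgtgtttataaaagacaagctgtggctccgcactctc
ID2: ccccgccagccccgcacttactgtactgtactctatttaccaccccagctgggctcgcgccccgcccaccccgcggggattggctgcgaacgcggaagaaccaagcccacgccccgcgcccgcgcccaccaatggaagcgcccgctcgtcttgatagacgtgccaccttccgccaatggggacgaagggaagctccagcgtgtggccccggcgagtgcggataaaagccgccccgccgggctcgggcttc
ID3: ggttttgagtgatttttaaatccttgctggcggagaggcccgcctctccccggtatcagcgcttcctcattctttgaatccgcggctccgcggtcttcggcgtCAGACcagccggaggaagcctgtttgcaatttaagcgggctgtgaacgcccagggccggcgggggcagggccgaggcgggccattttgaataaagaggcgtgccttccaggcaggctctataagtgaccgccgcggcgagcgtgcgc
SMAD6: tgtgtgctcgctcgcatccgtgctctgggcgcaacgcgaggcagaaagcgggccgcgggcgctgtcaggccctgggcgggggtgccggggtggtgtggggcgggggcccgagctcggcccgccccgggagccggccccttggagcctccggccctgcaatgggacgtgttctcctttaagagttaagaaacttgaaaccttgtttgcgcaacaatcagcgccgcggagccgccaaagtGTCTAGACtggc
The palindromic box was found in the SMAD6 window, and in 0.182% of 35116 promoter windows of the same length. The shorter CAGAC occurred 1 time in the ID3 window, and in 38.0% of all windows. ID1 and ID2 held none of the 3 motifs in these bases, and GGCGCC, found in 16.4% of all windows, was in none of the 4 shown. Among the members not shown, GGCGCC was found in a window of SMAD1, SMAD2, SMAD3, SMAD4 and SKIL. CAGAC was found in a window of SMAD1, SMAD3, SMAD7 and SKIL, and some of these genes have more than 1 window. Bases further upstream were not searched. The E-box letters CANNTG, which are counted but not capitalized, occurred 1 time in the ID2 window, in none of the other windows shown, and in 61.8% of all windows.

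Library totals ran from 13.2 to 31.5 M counts, and the 12 Rv1-WT libraries were the shallowest at 13.2 to 18.2 M. CDK8 RNA was 67.1 to 71.5 CPM (counts per M counts of the scaled library total) in dKO-8 and 118 to 125 CPM in dKO-8M under vehicle, against 26.4 to 27.3 CPM in Rv1-WT in FBS. CDK19 RNA was 505 to 519 CPM in dKO-19 and 298 to 354 CPM in dKO-19M, against 148 to 150.1 CPM in Rv1-WT. These values check the RNA of the kinase that was put back, and not the knockout, which need not remove the transcript. They do not give the protein level. By Western blot the study reported less CDK8 protein in dKO-8 than in parental cells, and much more CDK19 protein in dKO-19 and dKO-19M. All 10 prostate markers were detected in every line. The 4 plasma cell markers were detected in every Rv1-Luc library, with a summed level of 1.29 to 20.6 CPM, against at most 0.702 CPM elsewhere, where IGKC was at 0. Whether the source of these transcripts plays a part in the Rv1-Luc results was not tested. Vehicle replicate 1 of dKO-19M stood apart from the other libraries of its group. In bulk RNA, fewer cells of a kind and less RNA per cell cannot be told apart.

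The ID transcripts were far above the SMAD transcripts per length of gene. In Rv1-WT under vehicle in FBS, ID3 stood at 150.2 ± 6.29 (SD, n = 3) CPM per kilobase of exon, ID1 at 107 ± 6.59 and ID2 at 72.1 ± 3.89. SMAD4 followed at 6.19 ± 0.334 CPM per kilobase, SMAD1 at 4.85 ± 0.214, SMAD7 at 4.29 ± 0.232 and SKIL at 4.198 ± 0.257, with SMAD2 at 2.88 ± 0.0393, SMAD3 at 1.98 ± 0.394 and SMAD6 at 1.88 ± 0.0988. SMAD7 and SKIL, and SMAD3 and SMAD6, differed by less than their spread. Exon lengths are those of all annotated exons of a gene joined (GENCODE v29), which for SMAD2 come to 36.4 kilobases, and a gene that uses few of its exons is understated on this scale.

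ID1 and ID2 also varied most across the 16 groups, as the per-library plot of ID1, ID2, ID3 and SMAD7 shows. The group mean of ID1 went from 12.95 CPM in dKO-8 under vehicle to 183 CPM in Rv1-WT in CSS with SNX631, which is 14.1-fold. ID2 went from 40.6 CPM in dKO-19M under vehicle to 221 CPM, and ID3 from 153 to 392 CPM, between dKO-19M under vehicle and Rv1-WT in CSS with SNX631. In the order of the ID1 means, the first 9 groups were the 8 of Rv1-WT and Rv1-Luc together with dKO-19 under SNX631, and neighbours in this part of the order overlapped in their libraries. The libraries of dKO-19 under vehicle, at 38.9 to 40.3 CPM of ID1, overlapped with neither the group above nor the group below. All 6 groups of the remaining dKO lines lay lower, at 27.1 CPM of ID1 or less. SMAD2 and SMAD4 had the narrowest ranges, with group means of 74.0 to 111 CPM and 59.2 to 89.9 CPM.

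**Figure D1:**
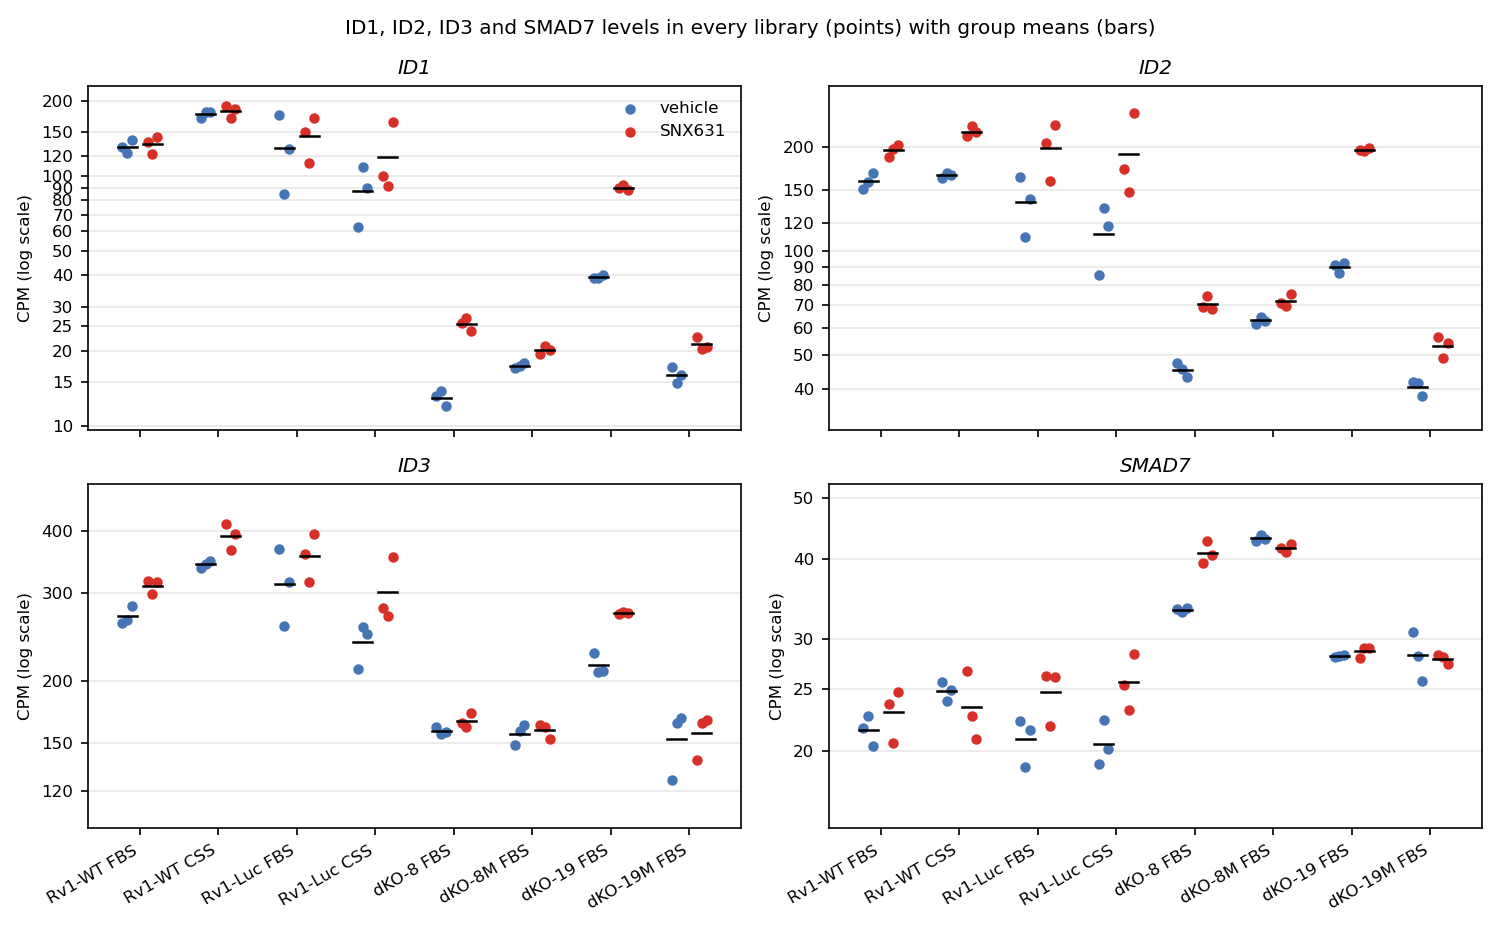
Level of ID1, ID2, ID3 and SMAD7 in each library, in CPM on a log axis, for the 16 groups of 3 libraries; dots are libraries and bars group means. ID1 and ID2 are higher with SNX631 than under vehicle in dKO-8 and dKO-19 with no overlap, and the Rv1-Luc libraries spread widely.

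**Figure D2:**
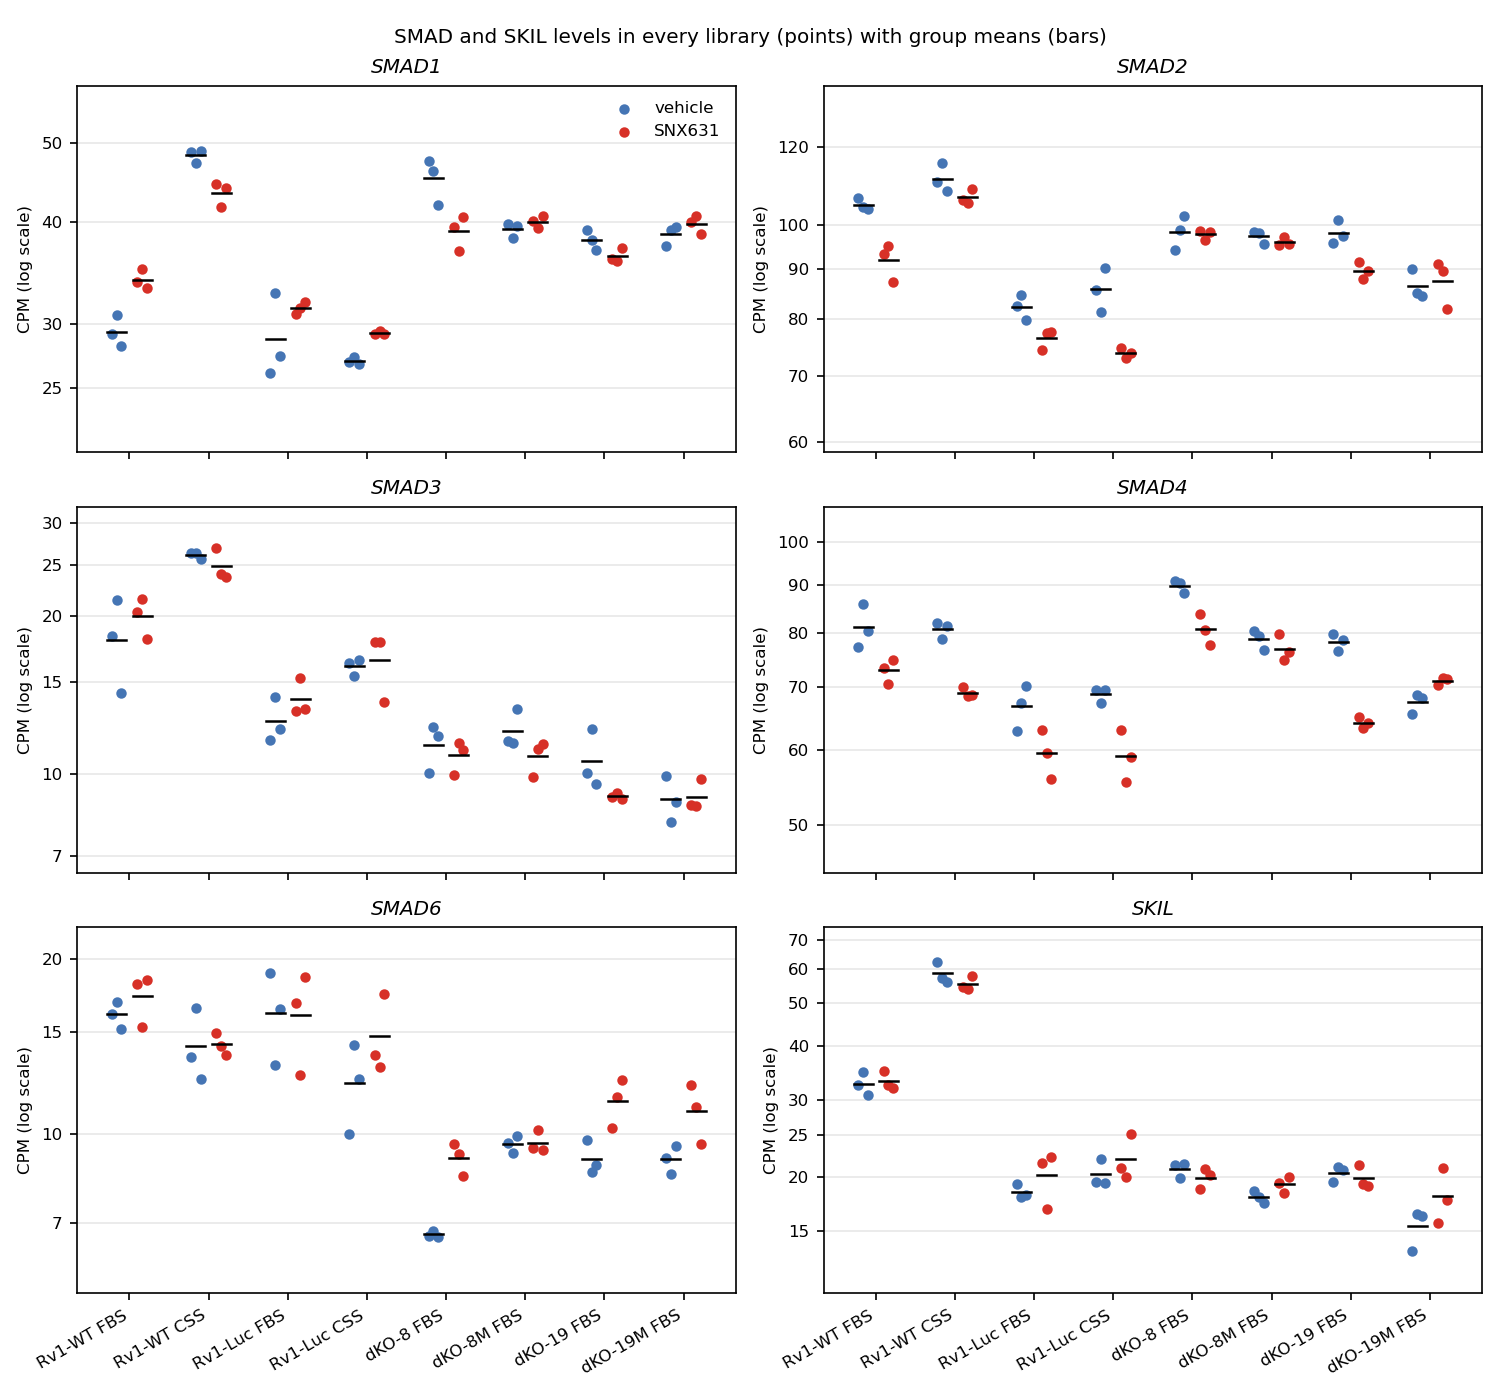
Level of SMAD1, SMAD2, SMAD3, SMAD4, SMAD6 and SKIL in each library, in CPM on a log axis, for the same 16 groups; dots are libraries and bars group means. SKIL is highest in the Rv1-WT groups in CSS, at 54.0 to 62.4 CPM, and SMAD2 varies least.

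To ask how inhibition of the Mediator kinases changed these transcripts, SNX631 was compared with vehicle within each line and medium. The clearest changes were those of ID1 and ID2 in the lines that carry a single active kinase. In dKO-19, ID1 was 38.9, 38.9 and 40.3 CPM under vehicle and 89.9, 91.9 and 88.3 CPM with SNX631. All 3 treated libraries lay above all 3 controls, and the log2 change was 1.19 ± 0.20 (SE, FDR 2.73e-05). ID2 was 91.0, 86.5 and 92.1 CPM under vehicle and 195, 195 and 197 CPM with SNX631, a log2 change of 1.12 ± 0.14 (FDR 1.69e-07), again without overlap. ID3 moved less, from 227, 208 and 209 CPM to 272, 275 and 274 CPM (log2 change 0.35 ± 0.10, FDR 0.0148). ID1 and ID2 were called here, that is, had an FDR under 0.01 and a fold above 1.5, as were 3.41% of all genes tested. At an FDR under 0.05 with any fold, 5 members passed, 3 higher and 2 lower, against 20.6% of all genes.

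In dKO-8 the same pair of genes rose from lower levels. ID1 was 13.1, 13.7 and 12.0 CPM under vehicle and 25.7, 27.1 and 24.0 CPM with SNX631 (log2 change 0.99 ± 0.26, FDR 0.00871). ID2 was 47.5, 45.6 and 43.4 CPM under vehicle and 69.1, 74.1 and 68.2 CPM with SNX631 (log2 change 0.63 ± 0.16, FDR 0.00461). Neither gene had overlapping groups, and ID1 and ID2 were called, as were 1.71% of all genes. At the looser limit 4 members rose and 2 fell, against 13.5% of all genes. Without any 1 of the 6 dKO-8 libraries neither gene was called, at an FDR of 0.0171 to 0.0463 for ID1 and 0.0111 to 0.0281 for ID2, while the log2 changes stayed within 0.93 to 1.03 and 0.60 to 0.67. ID3 was 161, 156 and 157 CPM under vehicle and 164, 162 and 172 CPM with SNX631, with a log2 change of 0.07 that did not pass the test. The change did not pass a test of difference between the CDK19 and the CDK8 line for either gene, with dKO-19 minus dKO-8 at 0.20 (95% interval -0.48 to 0.88) for ID1 and 0.49 (0.06 to 0.92, FDR 0.218) for ID2. No member passed that test at either limit by edgeR or DESeq2, where 0.885% and 4.77% of all genes did, and 4 had an unadjusted p under 0.05. On the dKO-8 and dKO-19 libraries alone ID2, ID3 and SMAD7 passed the looser limit.

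The SE of the ID genes depended on which libraries entered the fit, because all 48 share 1 estimate of the spread per gene. Fitted on its own 6 libraries, the ID1 change in dKO-8 had an SE of 0.066 in place of 0.26 and an FDR of 7.97e-15, and that in dKO-19 an SE of 0.043 and an FDR of 5.32e-21. In Rv1-Luc it was the other way round, and no ID gene passed the test of SNX631 there on its own libraries.

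In Rv1-Luc the ID genes were higher on average with SNX631, but the libraries of 1 group lay far apart. In CSS, ID2 was 85.3, 133 and 118 CPM under vehicle and 173, 148 and 249 CPM with SNX631. The groups did not overlap, the log2 change was 0.76 ± 0.14 (FDR 6.81e-05) and ID2 was the 1 member called, as were 4.06% of all genes. On the Rv1-Luc CSS libraries alone the FDR of ID2 was 0.156, and without SNX631 replicate 3 its log2 change was 0.52 (FDR 0.00377), below the fold limit. ID1 in the same cells was 62.8, 109 and 89.9 CPM under vehicle and 100.1, 91.1 and 165 CPM with SNX631, which overlap (log2 change 0.45 ± 0.18, FDR 0.0726). ID3 rose from 211, 256 and 248 CPM to 281, 270.0 and 354 CPM (log2 change 0.34 ± 0.10, FDR 0.0144). Of the 10 members, 3 rose and 2 fell at the looser limit, against 23.9% of all genes. In FBS, ID2 was 164, 109 and 141 CPM under vehicle and 205, 159 and 231 CPM with SNX631, which overlap, with a log2 change of 0.52 ± 0.14 (FDR 0.00489). No member was called there by edgeR or by DESeq2, against 3.67% of all genes, while 5 had an unadjusted p under 0.05 and 3 passed the looser limit, against 20.3% of all genes. On the Rv1-Luc FBS libraries alone none of these 3 passed. ID1 and ID3 had log2 changes of 0.15 and 0.18 and did not pass.

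In parental Rv1-WT, the log2 change of ID2 was above those of ID1 and ID3 in both media. In CSS it was 163, 167 and 165 CPM under vehicle and 214, 229 and 220.2 CPM with SNX631, without overlap (log2 change 0.42 ± 0.14, FDR 0.0217). In FBS it was 151, 158 and 168 CPM under vehicle and 187, 197 and 202 CPM with SNX631, also without overlap, but the log2 change of 0.30 ± 0.14 had an FDR of 0.175. On the Rv1-WT FBS libraries alone the FDR of ID2 was 2.3e-06. ID3 also stood higher with SNX631 without overlap in both media but did not pass. Its log2 change was 0.20 ± 0.11 in FBS (FDR 0.221) and 0.19 ± 0.10 in CSS (FDR 0.185). On the libraries of each comparison alone the FDR of ID3 was 0.000116 in FBS and 0.00045 in CSS. ID1 did not move beyond its spread, from 130.4, 124 and 139.9 CPM to 137, 123 and 144 CPM in FBS (log2 change 0.04, 95% interval -0.34 to 0.42) and by the same amount in CSS (-0.32 to 0.41). No member was called in Rv1-WT by edgeR or DESeq2, in FBS or in CSS, where 2.39% and 4.23% of all genes were. At the looser limit 1 member rose and 2 fell in each medium, against 14.5% and 26.5% of all genes, and 4 and 3 members had an unadjusted p under 0.05. Over the 6 settings with an active kinase, ID1, ID2 and ID3 were each higher on average with SNX631 in 6 of 6. In the fit over all 48 libraries they passed the looser limit in 2, 5 and 2. The drug response in Rv1-Luc did not pass a test of difference from that in Rv1-WT for any member in FBS, by edgeR or DESeq2, where 0.175% of all genes were called and 1.48% passed the looser limit, and none had an unadjusted p under 0.05.

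**Figure D3:**
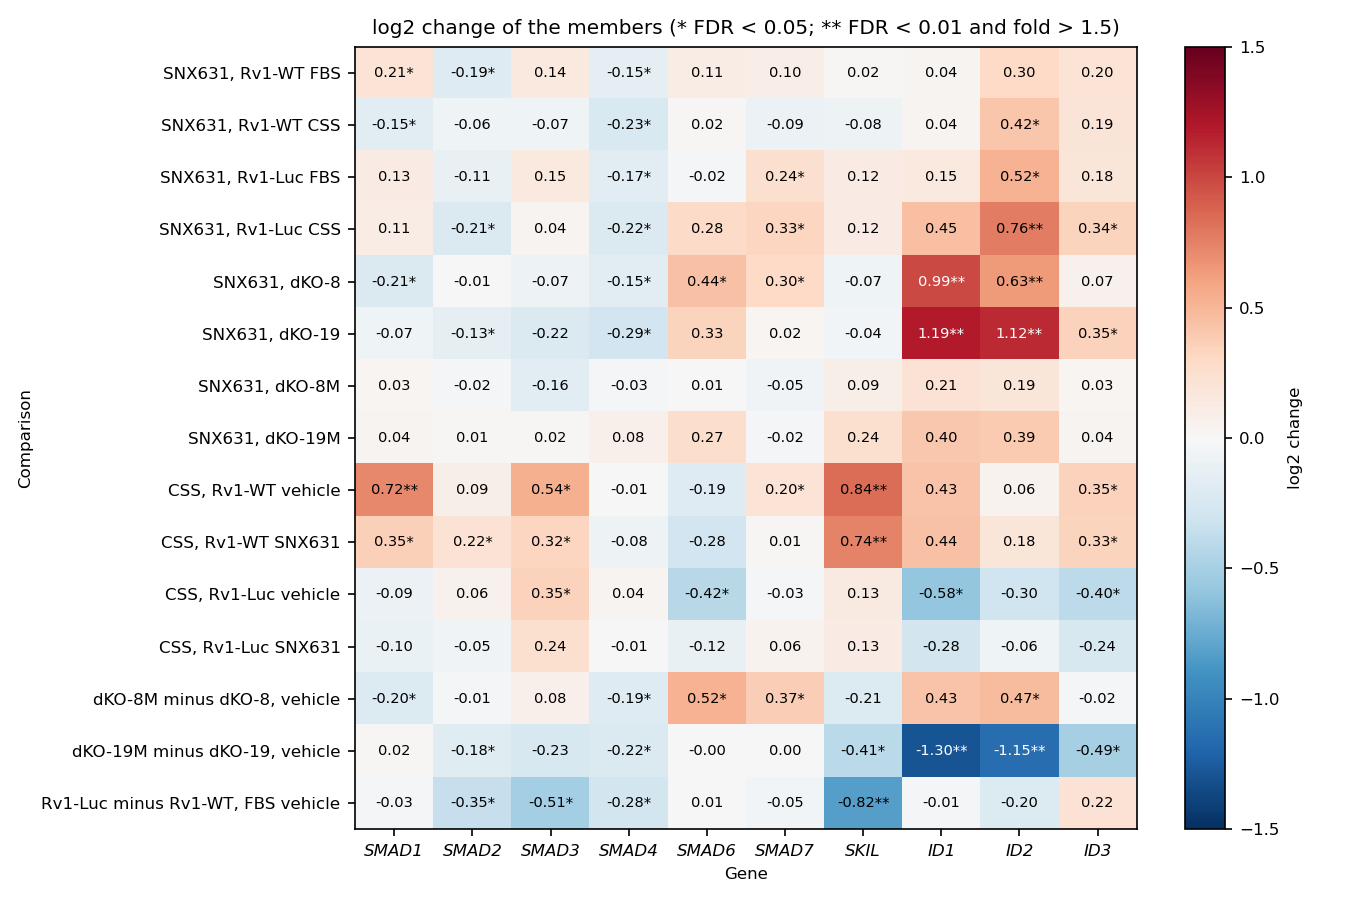
Log2 change of the 10 members in the 15 comparisons between 2 groups, as colors; 1 star marks an FDR under 0.05 and 2 stars an FDR under 0.01 with a fold above 1.5. The starred ID1 and ID2 cells for SNX631 are positive, those for dKO-19M against dKO-19 negative, and the SMAD4 cells for SNX631 are negative in the 6 settings with an active kinase.

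Among the SMAD genes the drug changes were smaller, and none was called. At the looser limit, passed by 13.5% to 26.5% of all genes, SMAD4 fell in 6 of 6 settings with an active kinase. In dKO-19 it was 79.9, 76.5 and 78.6 CPM under vehicle and 65.1, 63.3 and 64.2 CPM with SNX631, without overlap (log2 change -0.29 ± 0.05, FDR 1.35e-06). In Rv1-WT in CSS it went from 81.99, 78.9 and 81.3 CPM to 70.0, 68.5 and 68.7 CPM (log2 change -0.23 ± 0.05, FDR 0.000122). In Rv1-Luc in FBS, 1 treated library at 63.1 CPM lay within the controls of 63.0 to 70.3 CPM. On the Rv1-Luc FBS libraries alone SMAD4 did not pass (FDR 0.0619). The smallest SMAD4 change was -0.15. Counts of SMAD4 were fractional in 79.2% of libraries, those of ID1 in 50% and those of SMAD6 in 16.7%, which means that reads were shared with another gene or position, and these values are less certain.

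SMAD2, a TGF-β and activin SMAD, fell in 3 settings: by 0.19 on the log2 scale in Rv1-WT in FBS (106, 104 and 104 to 93.3, 95.02 and 87.5 CPM), by 0.21 in the CSS cultures of Rv1-Luc and by 0.13 in dKO-19. In dKO-8 its change was -0.01, with a sign that turned when libraries were scaled by size alone. SMAD1, a BMP SMAD, moved in different directions. It rose in Rv1-WT in FBS from 29.2, 30.7 and 28.2 CPM to 33.7, 35.0 and 33.2 CPM (log2 change 0.21 ± 0.06, FDR 0.0116). It fell in Rv1-WT in CSS by 0.15 (FDR 0.0268) and in dKO-8 from 47.5, 46.2 and 42.0 CPM to 39.4, 36.9 and 40.6 CPM (log2 change -0.21 ± 0.05, FDR 0.00283). In these 3 settings the SMAD1 groups did not overlap, and the drug change in Rv1-WT was lower in CSS than in FBS by 0.37 ± 0.08 (FDR 0.00432). SMAD1 was the 1 member for which this difference passed the looser limit, against 3.13% of all genes, and no member was called for it by edgeR or DESeq2, against 0.295%, with 2 at an unadjusted p under 0.05. In Rv1-Luc the same difference passed for no member by edgeR, DESeq2 or the Rv1-Luc libraries alone, against 0.0800% of genes called and 0.510% at the looser limit, and none had an unadjusted p under 0.05.

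The inhibitory SMADs rose in some settings. SMAD7 went from 33.4, 33.1 and 33.5 CPM to 39.6, 42.8 and 40.7 CPM in dKO-8 (log2 change 0.30 ± 0.07, FDR 0.00111), and in Rv1-Luc it rose by 0.33 ± 0.08 with SNX631 in CSS (FDR 0.00064) and by 0.24 ± 0.07 with SNX631 in FBS (FDR 0.0147). In dKO-19 SMAD7 was 28.0 to 28.3 CPM under vehicle and 28.0 to 29.1 CPM with SNX631, which overlap. SMAD6 rose in dKO-8 from 6.67, 6.80 and 6.63 CPM to 9.58, 9.21 and 8.44 CPM (log2 change 0.44 ± 0.14, FDR 0.0284). It also stood higher without overlap in dKO-19, at 0.33 ± 0.13 (FDR 0.0733), but did not pass. The same held in the kinase-dead dKO-19M, at 0.27 ± 0.13 (FDR 0.32), while dKO-8M was at 0.01. SMAD3 and SKIL passed in none of the 8 comparisons of SNX631 with vehicle. In the 6 settings with an active kinase their changes ran from -0.22 to 0.15 and from -0.08 to 0.12, and the SKIL value furthest from 0 was 0.24, in dKO-19M.

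Whether these changes needed kinase activity was addressed by the lines with a kinase-dead mutant. With SNX631 no member passed either limit in dKO-8M or dKO-19M by edgeR or DESeq2, where 0.0150% and 0.0900% of all genes were called and 0.485% and 2.41% passed the looser limit. An unadjusted p under 0.05 was found for 0 members in dKO-8M and 3 in dKO-19M. ID1 in dKO-8M was 17.0, 17.3 and 17.9 CPM under vehicle and 19.3, 20.8 and 20.1 CPM with SNX631, and in dKO-19M 17.3, 14.8 and 15.9 CPM and 22.7, 20.3 and 20.7 CPM. These groups did not overlap, although the log2 changes of 0.21 ± 0.26 and 0.40 ± 0.26 did not pass. ID2 likewise stood higher without overlap in both lines, at log2 changes of 0.19 ± 0.15 and 0.39 ± 0.16 (FDR 0.770 and 0.220). On the dKO-8M libraries alone ID1 and ID2 passed the looser limit, at an FDR of 0.0324 and 0.00169, and on those of dKO-19M alone neither did.

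The drug change was then compared between active and kinase-dead lines. For CDK19, ID2 rose more in dKO-19 than in dKO-19M by 0.73 ± 0.21 (FDR 0.0226) and SMAD4 fell more by 0.36 ± 0.06 (FDR 3e-05). These 2 members passed the looser limit, against 9.87% of all genes, and none was called, against 2.07%. ID1 differed by 0.79 ± 0.33 (95% interval 0.12 to 1.45, FDR 0.138). DESeq2 called ID2, and with the 12 libraries of this comparison alone ID1 and ID2 were called, at an FDR of 5.28e-06 and 2.43e-06. Without dKO-19M vehicle replicate 1 the FDR of ID2 was 0.0538. For CDK8, SMAD7 rose more in dKO-8 than in dKO-8M by 0.35 ± 0.09 (FDR 0.0129) and SMAD1 differed by -0.24 ± 0.08 (FDR 0.0364). That is 2 members against 6.20% of all genes, with none called by edgeR or DESeq2 against 0.905%. ID1 differed by 0.78 ± 0.37 (95% interval 0.03 to 1.53, FDR 0.249), and with the libraries of this comparison alone it was called, at an FDR of 9.31e-09. On the same libraries 5 members passed the looser limit. Those gained besides ID1 were ID2 (0.45 ± 0.06, FDR 1.17e-07) and SMAD6 (0.43 ± 0.12, FDR 0.00815). By DESeq2 on all libraries ID1 also passed the looser limit. Of the 10 members, 6 had an unadjusted p under 0.05 for CDK19 and 5 for CDK8.

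Under vehicle, the kinase-dead lines were compared with their active partners. These comparisons share the vehicle libraries of dKO-8 and dKO-19 with those of SNX631, so that the values are given side by side and not as independent results. In dKO-19M, ID1 was 17.3, 14.8 and 15.9 CPM, against 38.9, 38.9 and 40.3 CPM in dKO-19 (log2 difference -1.30 ± 0.24, FDR 4.01e-05). ID2 was 41.9, 41.7 and 38.1 CPM against 91.0, 86.5 and 92.1 CPM (log2 difference -1.15 ± 0.15, FDR 2.54e-07). Relative to the same dKO-19 libraries, both were lower with the kinase-dead mutant and higher with the inhibitor. ID3 was 126, 164 and 168 CPM against 227, 208 and 209 CPM and lower by 0.49 ± 0.11, and SKIL was lower by 0.41 ± 0.09. In all, 6 members fell at the looser limit, none rose and 2 were called, against 33.3% and 7.60% of all genes. SMAD4 was lower in dKO-19M by 0.22 ± 0.05 (FDR 9.14e-05), and lower with SNX631 by 0.29. Without dKO-19M vehicle replicate 1, ID1 and ID2 stood at -1.37 (FDR 0.000348) and -1.18 (FDR 4e-06), and 7 members passed.

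In the CDK8 lines, ID2 was higher in dKO-8M, at 61.7, 64.5 and 62.9 CPM, than in dKO-8, at 47.5, 45.6 and 43.4 CPM (log2 difference 0.47 ± 0.16, FDR 0.0208). The inhibitory SMAD6 and SMAD7 were higher by 0.52 ± 0.14 (FDR 0.00336) and 0.37 ± 0.07 (FDR 1.01e-05), with SMAD7 at 42.8, 43.8 and 43.1 CPM in dKO-8M. SMAD1 and SMAD4 were lower by 0.20 ± 0.05 and 0.19 ± 0.04. These 5 members compare with 30.5% of all genes at the looser limit. None was called by edgeR or DESeq2, against 7.03% of all genes, and 6 had an unadjusted p under 0.05. With SNX631 in dKO-8, which shares the vehicle libraries, the 5 stood at 0.63, 0.44, 0.30, -0.21 and -0.15 in the order named here. ID1 was higher by 0.43 ± 0.28 without overlap, which did not pass. On the libraries of this comparison alone 7 members passed the looser limit and none was called. Those gained were ID1 (FDR 3.27e-06) and SKIL, lower by 0.20 (FDR 0.00635).

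**Figure D4:**
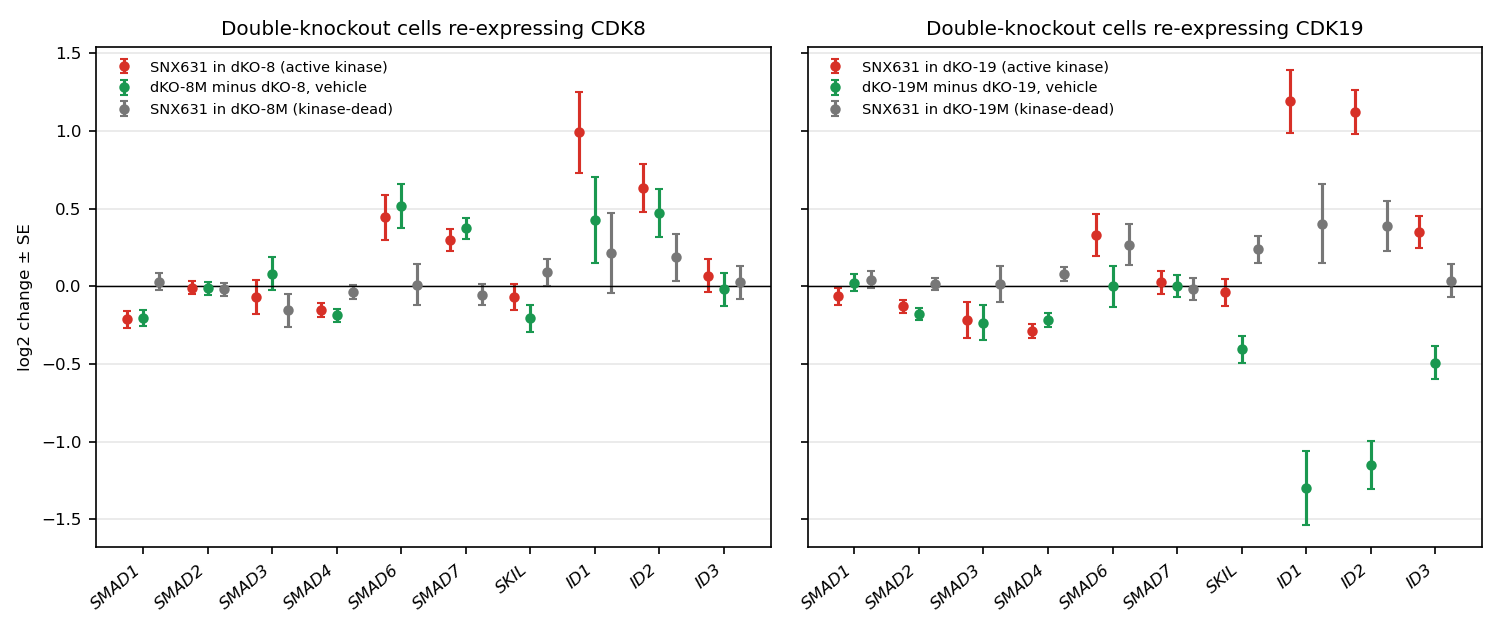
Log2 change with its SE for the 10 members in the CDK8 and the CDK19 lines: SNX631 against vehicle in the active line, kinase-dead against active line under vehicle, and SNX631 against vehicle in the kinase-dead line. With CDK19, ID1 is at 1.19 for the inhibitor and at -1.30 for the mutant, and with CDK8 at 0.99 and 0.43.

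To ask how androgen-depleted serum changed these transcripts, CSS was compared with FBS. No group had androgen added back to CSS, so that loss of androgen cannot be told apart from other differences between the sera. SKIL and SMAD1 rose in Rv1-WT. SKIL was 32.5, 34.8 and 30.8 CPM in FBS and 62.4, 57.3 and 56.1 CPM in CSS under vehicle, without overlap (log2 change 0.84 ± 0.08, FDR 4.84e-14). With SNX631 it was 34.9, 32.5 and 32.0 CPM in FBS and 54.5, 54.0 and 57.7 CPM in CSS (log2 change 0.74 ± 0.08, FDR 5.29e-12). SMAD1 was 29.2, 30.7 and 28.2 CPM in FBS and 48.7, 47.3 and 48.9 CPM in CSS under vehicle (log2 change 0.72 ± 0.06, FDR 4.22e-16), and rose by 0.35 ± 0.06 with SNX631 (FDR 6.77e-07). SMAD3 went from 18.3, 21.4 and 14.3 CPM to 26.3, 26.3 and 25.7 CPM under vehicle (log2 change 0.54 ± 0.10, FDR 6.3e-06). ID3 rose from 262, 265 and 283 CPM to 337, 344 and 349 CPM (log2 change 0.35 ± 0.10, FDR 0.00654). ID1 went from 130.4, 124 and 139.9 CPM to 171, 180.2 and 181 CPM, without overlap, but at 0.43 ± 0.18 did not pass (FDR 0.0526). By DESeq2 ID1 passed the looser limit, and on the libraries of this comparison alone its FDR was 3.23e-10. SKIL and SMAD1 were called under vehicle, against 10.9% of all genes, and SKIL with SNX631, against 7.83%. At the looser limit 5 members rose and none fell in each, against 44.9% and 40.6% of all genes, which is close to the share among all genes. On the libraries of each comparison alone 6 rose and none fell under vehicle, and 7 rose and 1 fell with SNX631. The share of all genes in those fits is not given here. The median log2 change of the 10 members was 0.28 under vehicle, against a median within 0.02 of 0 over all genes.

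In Rv1-Luc, ID1 and ID3 were lower in CSS than in FBS at the looser limit under vehicle, and ID2 stood at -0.30 and did not pass. ID1 was 176, 85.0 and 129 CPM in FBS and 62.8, 109 and 89.9 CPM in CSS, which overlap (log2 change -0.58 ± 0.18, FDR 0.0274). ID3 was 368, 258 and 316 CPM in FBS and 211, 256 and 248 CPM in CSS, without overlap (log2 change -0.40 ± 0.10, FDR 0.00742). SMAD6 fell by 0.42 ± 0.12 and SMAD3 rose by 0.35 ± 0.10. Thus 3 members fell and 1 rose, against 14.0% of all genes. None was called by edgeR or DESeq2, against 1.49% of all genes, and 5 had an unadjusted p under 0.05. On the Rv1-Luc libraries alone SMAD3 was the 1 member that passed, and the FDR of ID1, ID2 and ID3 was 0.439, 0.539 and 0.241. With SNX631 no member passed either limit by edgeR or DESeq2, where 1.51% of all genes were called and 12.7% passed the looser limit, and 2 had an unadjusted p under 0.05. FBS vehicle replicate 2 was the lowest of its group for ID1, ID2, ID3 and SMAD6, and CSS vehicle replicate 1 was the lowest of its group for the same 4 genes. Plasma cell markers were present in these cells, and their part was not tested.

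The change with CSS under vehicle differed between the sublines for 4 members, all lower in Rv1-Luc. The difference was -0.81 ± 0.08 for SMAD1 (FDR 3.79e-12), whose levels in Rv1-Luc were 26.1, 32.7 and 27.4 CPM in FBS and 26.9, 27.3 and 26.8 CPM in CSS. It was -0.71 ± 0.12 for SKIL (FDR 1.14e-06), at 19.2, 18.0 and 18.2 CPM in FBS and 19.5, 22.0 and 19.3 CPM in CSS. For ID1 it was -1.02 ± 0.26 (FDR 0.00212) and for ID3 -0.74 ± 0.15 (FDR 0.000126). These 4 were called, against 8.65% of all genes, and no further member passed the looser limit, against 34.1%. ID1 was not called without Rv1-Luc FBS vehicle replicate 1 (-0.73, FDR 0.0187), without Rv1-Luc CSS vehicle replicate 1 (-0.82, FDR 0.0128), or on the 12 libraries of this comparison alone (-1.05, FDR 0.0663).

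**Figure D5:**
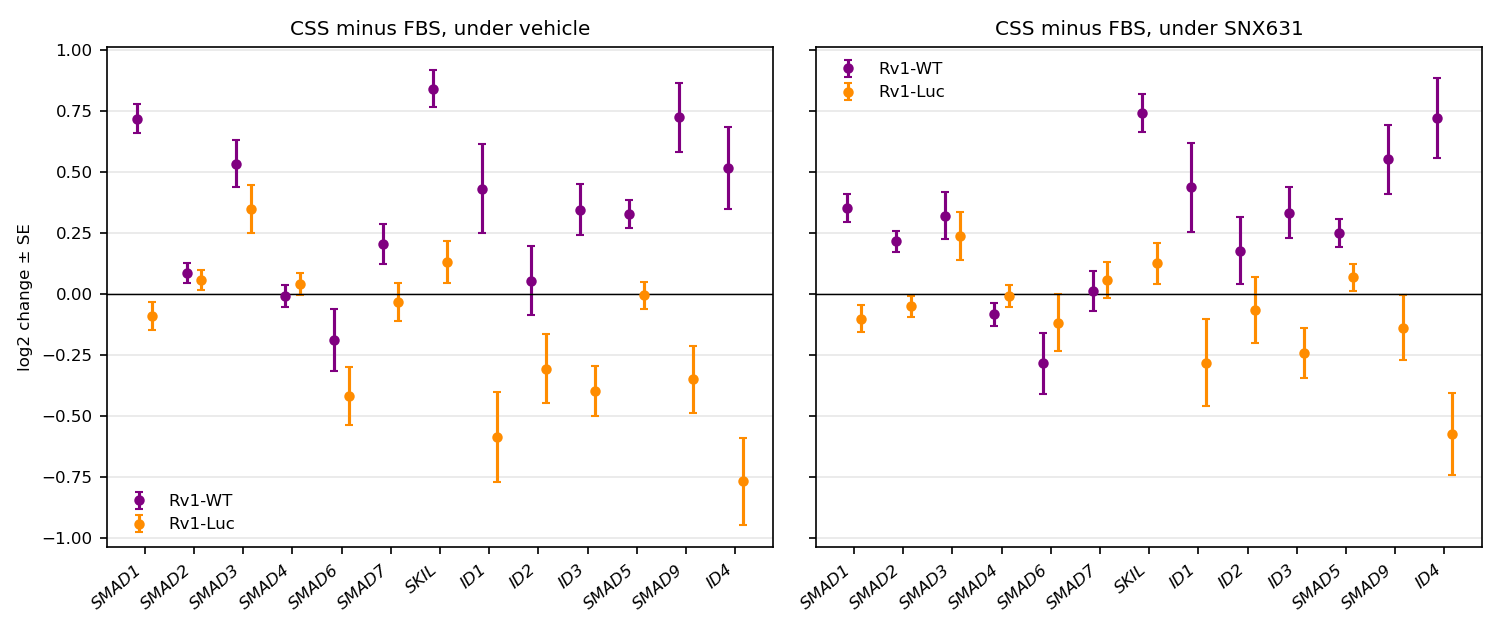
Log2 change from FBS to CSS with its SE in Rv1-WT and Rv1-Luc, under vehicle and with SNX631, for the 10 members and SMAD5, SMAD9 and ID4. SKIL and SMAD1 are at 0.84 and 0.72 in Rv1-WT under vehicle, and ID1 is at 0.43 in Rv1-WT and at -0.58 in Rv1-Luc.

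In FBS under vehicle the sublines already differed in 4 members, all lower in Rv1-Luc. SKIL was 19.2, 18.0 and 18.2 CPM in Rv1-Luc against 32.5, 34.8 and 30.8 CPM in Rv1-WT (log2 difference -0.82 ± 0.08, FDR 2.32e-12). SMAD3 was lower by 0.51 ± 0.10 (FDR 3.16e-05), SMAD2 by 0.35 ± 0.04 (FDR 3.19e-10) and SMAD4 by 0.28 ± 0.05 (FDR 6.55e-07). Of these SKIL was called, against 17.8% of all genes, and the 4 that passed the looser limit compare with 52.5% of all genes. The mean of ID1 was 131 ± 8.12 CPM in Rv1-WT and 130.1 ± 45.6 CPM in Rv1-Luc (SD, n = 3 each), so that the lines differed in spread more than in mean.

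A wider list of 50 genes of the pathway was read in the same fit, of which 47 were tested. With SNX631, 20 of 376 pairs of gene and setting were called (15 higher, 5 lower), against 0.0150% to 4.23% of all genes in these 8 comparisons, and in the kinase-dead lines no gene of the list passed either limit by edgeR, with 1 and 11 genes at an unadjusted p under 0.05. By role, the genes that passed the looser limit in dKO-19 were 1 higher and 6 lower of 8 intracellular inhibitors, 1 higher and 2 lower of 11 ligands, 2 lower of 11 receptors, 1 lower of 5 extracellular antagonists tested, 2 lower of 3 E proteins and 1 higher and 2 lower of 6 common targets tested, against 20.6% of all genes in both directions together. In Rv1-WT FBS, Rv1-WT CSS, Rv1-Luc FBS, Rv1-Luc CSS and dKO-8, 13.5% to 26.5% of all genes passed this limit. Intracellular inhibitors there were, in order, 0 higher and 3 lower, 2 and 3, 0 and 3, 1 and 3, and 0 and 4. Ligands were, in order, 3 higher and 1 lower, 5 and 2, 4 and 1, 2 and 2, and 0 and 1. Among the E proteins, which the ID proteins bind, TCF12 fell at the looser limit in 6 of 6 active settings (log2 changes of -0.17 to -0.47). TCF3 did so in 5 and TCF4 in 4. CDKN1A, a cell-cycle inhibitor that E proteins and SMADs can induce, fell in 6 of 6 (-0.38 to -0.67), most in dKO-19, where its mean went from 302 to 189 CPM (FDR 3.42e-18). Whether the changes of the ID genes, the E proteins and CDKN1A are linked was not tested. ATOH8, a BMP target, was called higher in 3 settings and passed the looser limit in 5 of 6, although on the Rv1-Luc CSS libraries alone it was not called (FDR 0.0187). In dKO-19 it went from 14.9, 13.7 and 13.2 CPM to 29.8, 28.9 and 31.1 CPM (log2 change 1.10 ± 0.19, FDR 2.23e-05). ID4, the fourth ID gene, rose in 5 settings at the looser limit, from 35.5, 31.5 and 34.8 CPM to 79.8, 89.2 and 86.4 CPM in dKO-19 (log2 change 1.33 ± 0.18, FDR 7.1e-07).

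The ligands and antagonists called with SNX631 included activin and its binding proteins. INHBA, which encodes the subunit of activin A, rose with SNX631 in Rv1-WT in FBS from 1.47, 1.00 and 1.10 CPM to 2.47, 2.803 and 3.34 CPM (log2 change 1.26 ± 0.26, FDR 0.000292) and was called in Rv1-Luc in both media. In dKO-19 INHBA fell by 0.79 ± 0.25 (FDR 0.0141). FST, which encodes the activin antagonist follistatin, rose in Rv1-WT in CSS from 2.06, 1.36 and 1.76 CPM to 8.44, 7.20 and 8.21 CPM (log2 change 2.19 ± 0.19, FDR 2.74e-14). FSTL3, a related antagonist, fell in 5 of 6 settings at the looser limit and was called in Rv1-Luc, at -0.64 in FBS and -0.65 in CSS. Between lines, INHBA summed to 137 counts in dKO-19 and 4 in dKO-19M over the 3 vehicle libraries, a ratio of 41.3 (95% counting interval 15.8 to 154), and to 19 and 1 in dKO-8 and dKO-8M (21.1, 3.36 to 877). BMP2 went the other way, with 54 counts in dKO-19M and 3 in dKO-19 (14.9, 4.85 to 74.7). These intervals cover counting error only.

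With CSS against FBS, 35 of 188 pairs of the wider list were called (27 higher, 8 lower), against 1.49% to 10.9% of all genes in these 4 comparisons. INHBA rose most in Rv1-WT under vehicle (log2 change 2.89 ± 0.21, FDR 1.66e-17), from a mean of 1.19 to 8.93 CPM, and GDF15, a distant relative of the BMPs, rose by 2.05 ± 0.13 there. SMAD9, the third BMP SMAD, rose by 0.72 ± 0.14 (FDR 6.23e-05) and SMAD5 by 0.33 ± 0.06. Line differences were called in 32 of 141 pairs (13 higher, 19 lower), against 7.03% to 17.8% of all genes, and differences between effects in 16 of 329 (4 higher, 12 lower), against 0.0800% to 8.65%.

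The genes whose levels most resembled those of a member were ranked by Pearson's r over the 16 group means, among 14056 genes, as a description only, since groups of 1 line share their derivation. For ID1 they were STAC (0.977), ID3 (0.976) and TUSC3 (0.973), and for ID3 they were ID1, ABCC2 (0.964) and SMAD9 (0.960). ID2 was most like ABCC2 (0.964), KLKP1 (0.958) and ID1 (0.956). Each of the 3 thus had another ID gene among its 3 nearest. SKIL was closest to PPCS and WDR11 (0.982 each), SMAD1 to ABITRAM (0.971), SMAD2 to PEX13 (0.969), SMAD3 to CLCN5 (0.965), SMAD6 to MOCS2-DT (0.963) and SMAD7 to VPS13B (0.969). SMAD4 had the weakest likeness, to USP33 (0.908), and no SMAD gene was among the 3 nearest of SMAD1, SMAD2, SMAD3, SMAD4, SMAD6 or SMAD7.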

How the data were processed

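Directional libraries were made from total RNA, per the labels. The submitters' processing notes name FastQC, cutadapt 2.8, STAR 2.7.2b, featureCounts and Subread 2.0.3, with the builds GRCh38.p13 and GRCm39; the annotation release and the strand setting are not given in the sources used here. The values deposited by the authors are expected counts per gene: 81.6% of the nonzero values are whole, and shared reads were divided. Here the deposited counts were rounded, the 2 transgenes were left out, and filterByExpr (minimum count 10, minimum total 15) kept 20009 of 61815 genes. Scaling was by TMM (factors 0.911 to 1.07), which also gave the CPM values. The test was edgeR 4.0.16's quasi-likelihood test (limma 3.58.1, R 4.3.3; robust, two-sided), with 1 mean per group over all 48 libraries, 32 residual degrees of freedom and Benjamini-Hochberg adjustment (FDR) over all genes tested. A gene was called at an FDR under 0.01 and a fold above 1.5, the limits of the study, and a looser limit of FDR under 0.05 was read beside it. The 22 comparisons were SNX631 against vehicle (8), CSS against FBS (4), line differences (3) and differences between these effects (7). Fold changes are fitted log2 changes, written ± SE. The common biological coefficient of variation was 4.20%, and totals of 13.2 to 31.5 M counts set the counting precision.

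The 10 members and the list of 50 pathway genes were chosen with earlier results of these data known. Every member is named. SMAD5, SMAD9 and ID4 were to be named once, and where they appear again this was chosen after their values were seen. A gene of the pathway list is named where called in at least 2 of the 6 SNX631 settings with an active kinase. It is also named where called in both kinase-dead lines, or with 1 of the 3 largest changes in its family of comparisons. BMP7 and NOG had such changes with SNX631, at log2 changes of -2.94 and 2.26. They were called in none of the active settings and are named only here. The E proteins and the genes of the closing section are named beyond this rule, after their values were seen. Labels give biological triplicates and no batch, and p-values measure the spread between these libraries. Alternatives were DESeq2 1.42.0 (its size factors and its Wald test), library-size scaling, no filter, counts thinned to the smallest library, a test against a 1.5-fold change, a replicate block, the libraries of each comparison alone, and each library left out. Exon lengths are from GENCODE v29 on GRCh38, and the promoter windows and their coordinates from RefSeq on GRCh38.p14.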

Additional observations from a re-analysis of the deposited data

Results flagged for a closer look

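The results below stand out because the effect of 1 treatment differed between 2 lines by a test of the difference itself (edgeR, FDR under 0.01 and fold above 1.5). The change from FBS to CSS under vehicle was lower in Rv1-Luc than in Rv1-WT for the members SMAD1 (log2 difference -0.81), SKIL (-0.71), ID1 (-1.02) and ID3 (-0.74). It was also lower for SMAD9 (-1.07) and ID4 (-1.28), for the ligands INHBA (-1.40) and GDF15 (-2.50), and for TGFBR2 (-0.75), TGIF1 (-0.73), TCF12 (-0.65), CCN2 (-1.29) and KLF10 (-0.73). It was higher in Rv1-Luc for BMP6 (0.84), GDF11 (0.74) and TGFBR3 (0.94). On the libraries of this comparison alone the ID1 and ID4 differences were not called (FDR 0.0663 and 0.0127).

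The change with SNX631 was higher in dKO-19 than in dKO-19M for ATOH8 (1.07) and lower for CDKN1A (-0.62) and TGFBR3 (-0.64). It was lower in dKO-19 than in dKO-8 for CDKN2B (-0.90), a cell-cycle inhibitor.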

How the results depend on the processing

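Over the members, 5 calls were made for SNX631, 3 for CSS, 3 between lines and 4 for differences between effects, and over the pathway list 20, 35, 32 and 16. At an FDR under 0.05 with no fold limit the members had 25, 14, 15 and 9 calls and the pathway list 117, 78, 68 and 50. Tested against a 1.5-fold change instead of 0, the members kept 1, 1, 2 and 0 calls and the list 4, 16, 16 and 1. Without the low-count filter, differences between effects gave 7 member calls (3 higher, 4 lower) in place of 4 (all lower), and on the libraries of each comparison alone 6 (3 higher, 3 lower). Those gained there were higher changes of ID1 and ID2 with SNX631 in active lines than in kinase-dead lines. DESeq2, its size factors, library-size scaling and thinned counts left every one of these 8 counts within 1.5 times. No change that was called, and no member change at an FDR under 0.05, turned its sign with another scaling, while the signs of some smaller member changes did with library-size scaling or DESeq2's size factors. No scaling moved the median gene by more than 0.1 on the log2 scale.

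With 1 library left out, member calls ranged from 3 to 6 for SNX631, 3 to 4 for CSS, 3 to 4 between lines and 3 to 4 for differences between effects, and pathway calls from 17 to 23, 31 to 37, 30 to 32 and 12 to 18. The fall to 3 came with each dKO-8 library.

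With the replicate number as a block the members gave 5, 3, 3 and 4 calls and the list 20, 35, 32 and 17. Deviations of same-numbered libraries from their group means correlated at -0.08 to 0.13. In 0 of 15 comparisons did every pair correlate above 0.1. This check covers all genes tested, low ones included, so it cannot show whether the numbers pair the samples. Depth limits the lowest genes most, such as INHBA in the kinase-dead lines.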
